A study of Mus musculus with 7 samples.

Results

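The genes described here encode the protein subunits of the oxidative phosphorylation machinery, together with a few assembly factors that share their symbol prefixes. Members were chosen by symbol and chromosome: every protein-coding gene of the mitochondrial chromosome, and every nuclear protein-coding gene whose symbol starts with Nduf, Uqcr, Cox4 to Cox8 or Atp5, plus Sdha, Sdhb, Sdhc and Sdhd. The rule found 107 of the 34932 genes in the files. Of these, 6 nuclear genes stayed under 1 CPM (reads scaled to library size) in all libraries and were left out. The remaining 101 comprised 13 mitochondrially encoded genes and 88 nuclear genes, and all 101 were among the 14695 genes tested.

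RNA-seq had been made from haematopoietic stem cells of the long-term type (LT-HSCs), rare cells of the marrow that sustain every blood lineage for life, sorted as negative for lineage markers and CD48 and positive for Sca-1, c-Kit and CD150. Of the 7 libraries, 4 are labelled B4galt1 KO (genotype 129S1/C57Bl/6, B4-/-) and 3 are labelled B4galt1 WT (genotype 129S1/C57Bl/6). The labels thus name the same mixed strain background for both groups. Libraries are written KO1 to KO4 and WT1 to WT3, by the replicate numbers of the labels. Neither age nor sex is given in the labels, and no treatment is named. The labels do not say whether replicates are separate animals, so the p-values speak only to the spread among the libraries at hand. B4galt1, which encodes a galactosyltransferase of N-glycan synthesis, had a mean level of 15.9 ± 2.28 CPM (SD, n = 4) under the KO label and 18.3 ± 6.62 CPM (SD, n = 3) under the WT label. Since its RNA level did not separate the groups, the groups are called by their labels throughout.

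Oxidative phosphorylation passes electrons from NADH and succinate through complexes I, II, III and IV of the inner mitochondrial membrane to oxygen, and complex V, the ATP synthase, uses the resulting proton gradient to make ATP. A small set of core subunits is encoded by the mitochondrial chromosome and transcribed inside the organelle as long precursors, while most subunits, and all of complex II, are encoded in the nucleus and imported as proteins. LT-HSCs are known for relying more on glycolysis and less on respiration than their dividing progeny.

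Each library held between 23508985 and 34941390 estimated reads. The summed level of 8 LT-HSC markers ran from 613 to 909.6 CPM under the KO label and from 830.1 to 1089 CPM under the WT label. None of the 8 was called, but Procr, Fgd5 and Mecom were each lower in every library labelled KO than in any labelled WT, with log2 fold changes of -0.97 (edgeR adjusted p 0.0680), -1.16 (0.166) and -0.55 (0.206). Such a separation was found in 7.47% of all genes tested. The gap was narrow for Fgd5 (12.14 CPM in KO3, 12.16 in WT1) and Mecom (71.12 in KO3, 71.4 in WT1). For the other markers the groups overlapped, with Ly6a above 0 (0.11) and Slamf1, Kit, Hlf and Hoxb5 below 0. Markers of other cell types did differ by group, and a gene is named as called where its adjusted p was below 0.05 by edgeR. Cd48, which the sort selects against, was called higher and stood at 105.3 to 141.8 CPM in the libraries labelled KO against 14.0 to 32.3 CPM in those labelled WT. The 16 megakaryocyte and platelet markers summed to 1349 to 2189 CPM against 6122 to 12950 CPM, and 12 of the 16 were called lower. The 12 granulocyte and monocyte markers summed to 127.4 to 212.4 CPM against 96.1 to 105.6 CPM, with 1 called lower and Ly6g at 0 everywhere. Most of that sum came from Prtn3 (log2 fold change 0.72) and Mpo (2.48), and Ctsg, Csf1r and Ly6c2 were also above 0. S100a9, the gene called lower, was at -2.23 (edgeR adjusted p 0.0404). S100a8 (-2.55), Ngp (-3.72), Camp (-2.83) and Elane (-0.64) were also below 0, and of these 4 only Elane had overlapping groups. All of these lower genes stayed at or below 9.09 CPM. The erythroid, lymphoid, and stromal and endothelial sums overlapped between the groups, and Slc4a1 and Cdh5 were at 0 in every library. Single erythroid markers differed in direction. Hba-a1 stood at 0 to 10.7 CPM under the KO label and 46.4 to 127.9 CPM under the WT label (log2 fold change -5.06, edgeR adjusted p 0.0622). Hba-a2 stood at 0 to 10.6 CPM against 23.9 to 62.4 CPM (-4.14, edgeR adjusted p 0.1585). Hbb-bs was also below 0 at -0.24, and the other erythroid markers tested were above 0, among them Hbb-bt (1.51) and Klf1 (1.26). The summed level of 4 Y-linked genes was 10.9 CPM in KO4 and 6.04 CPM in WT3, against 255.7 to 364.6 CPM in the other libraries. KO4 and WT2 also stood apart from the replicates of their groups, with a chi-square per gene of 114 to 191 in every pair that held one of them and of 25.9 to 50.3 in the other pairs, so the main results are given with and without them. The part of these differences in the results below was not tested. In bulk RNA, fewer cells of a type and less RNA per cell cannot be told apart.

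Several mitochondrial genes have identical or nearly identical copies in the nuclear genome. The pair of mt-Nd3 and its copy is shown first because reads were divided between 2 sequences that differ at a single base. The complex I subunit gene mt-Nd3 lies on the plus strand of the mitochondrial chromosome at chrM:9459-9806 (GRCm38). The pseudogene Gm28438 lies on chromosome 1 at chr1:24612775-24613119. Over the 345 bases that align, the transcripts differ at 1 position, T3C, counted from 1 at the 5′ end of mt-Nd3 with the base of mt-Nd3 first, which is genome position 9461 on the mitochondrial chromosome and falls in the start codon. The first bases of each are given 5′ to 3′ with the differing base in capitals.

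mt-Nd3: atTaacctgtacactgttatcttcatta

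Gm28438: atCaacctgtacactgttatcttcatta

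Apart from mt-Nd3 and mt-Nd4l, the mitochondrially encoded genes were all lower on average in the libraries labelled KO, by similar amounts in each complex, and none passed the test. edgeR called 0 of 13 mitochondrially encoded genes lower at an adjusted p below 0.05, where it called 1.66% of all genes tested lower, and 0 of 13 higher, where the background was 0.599% (2.26% in either direction). At an unadjusted p below 0.05, 11 of the 13 were lower, against 7.21% of all genes tested, and 1 was higher, against 7.42%. DESeq2 called 2 of the 13 lower (mt-Cytb and mt-Co1), where it called 3.5% of all genes lower and 2.4% higher. limma voom called mt-Nd3 higher, where it called 1.83% of all genes higher and 2.99% lower. The median log2 fold change (KO minus WT) was -0.57 over the 13 genes and 0.03 over all genes tested. In 6 of the 13, every library labelled KO was below every library labelled WT, a separation found in 7.47% of all genes tested. In none of the 13 was every library labelled KO above, against 8.23% of all genes. The counts here, like those of the nuclear members below, are taken across genes that share libraries. The genes are thus not separate observations.

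mt-Cytb encodes cytochrome b, the mitochondrially encoded subunit of complex III. It stood at 3162, 3378, 3379 and 2718 CPM in KO1 to KO4 and at 3814, 5532 and 4770 CPM in WT1 to WT3. The groups did not overlap, and KO4 was the lowest library and WT2 the highest. The fitted log2 fold change was -0.58 (SE 0.166), with an adjusted p of 0.124 by edgeR's quasi-likelihood test, the smallest among the members, and of 0.0191 by DESeq2.

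The catalytic core of complex IV comprises the products of mt-Co1, mt-Co2 and mt-Co3. mt-Co1, whose product holds the site where oxygen is reduced, stood at 4643, 4469, 4657 and 5071 CPM in KO1 to KO4 and at 5359, 7588 and 6768 CPM in WT1 to WT3. Its groups did not overlap, and the log2 fold change was -0.48 (SE 0.154, adjusted p 0.1695 by edgeR and 0.0387 by DESeq2). KO4, the lowest library for most members, was here the highest of the libraries labelled KO. mt-Co2, whose product receives electrons from cytochrome c, stood at 3824, 3079, 3358 and 2654 CPM against 3981, 6864 and 3814 CPM. Here the groups overlapped, since KO1 lay just above WT3, and the log2 fold change was -0.60 (SE 0.223, adjusted p 0.246 by edgeR). mt-Co3 stood at 7049, 6738, 7219 and 6005 CPM against 7790, 12350 and 8411 CPM, with no overlap and WT2 far above the rest. Its log2 fold change was -0.50 (SE 0.179, adjusted p 0.232 by edgeR).

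In complex V, mt-Atp6 encodes the subunit that forms the proton channel with the ring of c subunits. It stood at 5333, 4865, 5251 and 3675 CPM in KO1 to KO4 and at 6105, 9646 and 6221 CPM in WT1 to WT3, with no overlap. The fitted log2 fold change was -0.62 (SE 0.203, adjusted p 0.184 by edgeR). mt-Atp8, the other mitochondrially encoded subunit of complex V, stood at 191.5, 223.5, 216.1 and 169.2 CPM against 239.0, 280.7 and 250.1 CPM. Its groups did not overlap either, and the log2 fold change was smaller, -0.36 (SE 0.155, adjusted p 0.320 by edgeR).

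Complex I has 7 mitochondrially encoded subunits, all in the membrane arm, and their genes were the most varied. mt-Nd1, whose product lies next to the ubiquinone channel, stood at 1745, 1607, 1510 and 1182 CPM against 1854, 2908 and 1943 CPM and did not overlap (log2 fold change -0.57, SE 0.201, edgeR adjusted p 0.222). The groups overlapped for the other six. mt-Nd2, mt-Nd4 and mt-Nd5 encode the antiporter-like subunits that are thought to move protons. mt-Nd2 stood at 641, 419, 468 and 327 CPM against 646, 1133 and 551 CPM (log2 fold change -0.74, SE 0.279, edgeR adjusted p 0.250). mt-Nd4 stood at 1674, 1146, 1342 and 859 CPM against 1690, 3096 and 1569 CPM (log2 fold change -0.76, SE 0.276, edgeR adjusted p 0.237). mt-Nd5 stood at 1252, 1021, 1111 and 816.8 CPM against 1233, 1639 and 1413 CPM (log2 fold change -0.44, SE 0.180, edgeR adjusted p 0.290). In mt-Nd2 and mt-Nd4, WT2 alone stood well above the range of the others, and the other libraries labelled WT lay within or close to the range of those labelled KO.

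mt-Nd6 is the only protein-coding gene on the minus strand of the mitochondrial chromosome among the 13, and it had the most negative log2 fold change of them, -0.79 (SE 0.356, edgeR adjusted p 0.341). Its level was 643, 368.7, 479.4 and 219.9 CPM in KO1 to KO4 and 589.9, 1121 and 504.1 CPM in WT1 to WT3. KO1 was above WT1 and WT3, so the groups overlapped. mt-Nd6 shares 14 bases with mt-Nd5 on the opposite strand, and the library kit does not mark strand, so reads in that overlap cannot be assigned to either gene by strand. The same holds for reads in the rest of mt-Nd6, where RNA of the plus strand cannot be told apart from mt-Nd6 RNA. The level, fold change and read ratio given for mt-Nd6 carry this limit.

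**Figure D1:**
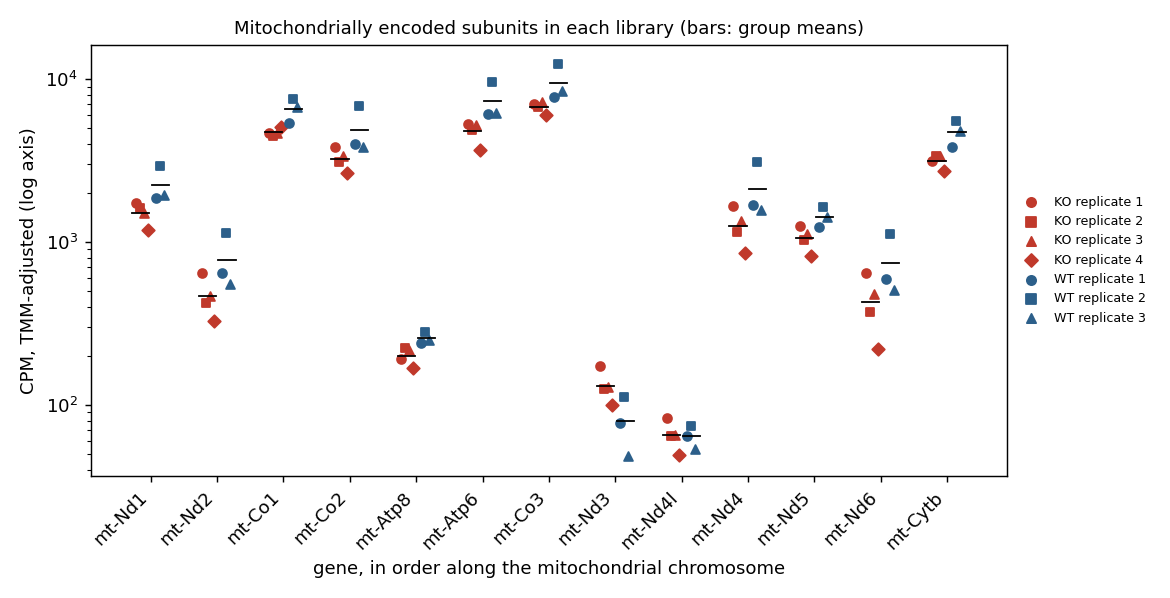
Level of each of the 13 mitochondrially encoded genes in each library, in CPM scaled by TMM on a log axis, with genes in their order along the mitochondrial chromosome. Red symbols are the 4 libraries labelled KO, blue symbols the 3 labelled WT, and bars the group means; WT2 is highest in 11 of the 13 genes, and KO4 is lowest in 11.

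mt-Nd3 was the exception in direction. It stood at 171.9, 125.3, 128.7 and 99.0 CPM in KO1 to KO4 and at 77.6, 111.6 and 48.2 CPM in WT1 to WT3, a log2 fold change of 0.73 (SE 0.277, edgeR adjusted p 0.256, limma voom adjusted p 0.0193). The groups overlapped by KO4 and WT2. The copy Gm28438, shown above with its single differing base, was assigned 0 reads in all 4 libraries labelled KO and 2771, 2847 and 1762 reads in WT1 to WT3. It therefore took 54.8%, 54.4% and 61.1% of the reads of the pair in the libraries labelled WT. A count of 0 allows up to 3 reads per library by counting error alone. Reads that fit both sequences were divided by estimate, so this floor does not bound the number of reads that came from Gm28438. Summed over mt-Nd3 and Gm28438, the level was 171.9, 125.3, 128.7 and 99.0 CPM in KO1 to KO4 and 171.7, 245.0 and 124.2 CPM in WT1 to WT3. The log2 fold change of the sum was -0.46 (SE 0.246, edgeR adjusted p 0.430), so the direction turned and came to lie within the range of the other mitochondrially encoded genes. The base that the sequencing reads carry at position 9461 was not analysed here.

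The other mitochondrial genes with nuclear copies kept their direction when the copies were added. Gm29216, on chromosome 1 at chr1:24615706-24616197, matches the last part of mt-Co1, and with Gm13340 it took between 27.7% and 48.5% of the reads of mt-Co1 and its copies. The sum over mt-Co1 and both copies was 8234, 7106, 7777 and 7011 CPM in KO1 to KO4 and 8903, 14720 and 9932 CPM in WT1 to WT3. Its log2 fold change was -0.57 (SE 0.183, adjusted p 0.169 by edgeR), and the groups did not overlap. KO4, highest of the libraries labelled KO for mt-Co1 alone, was the lowest in the sum. Copies of mt-Atp6 (Gm10925) and of mt-Co3 (Gm28437) match those genes with 0 mismatches over 678 and 783 aligned bases. They were assigned at most 1.55% and 0.106% of the reads of their pairs. Reads within these stretches fit both sequences, so this division is an estimate.

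**Figure D2:**
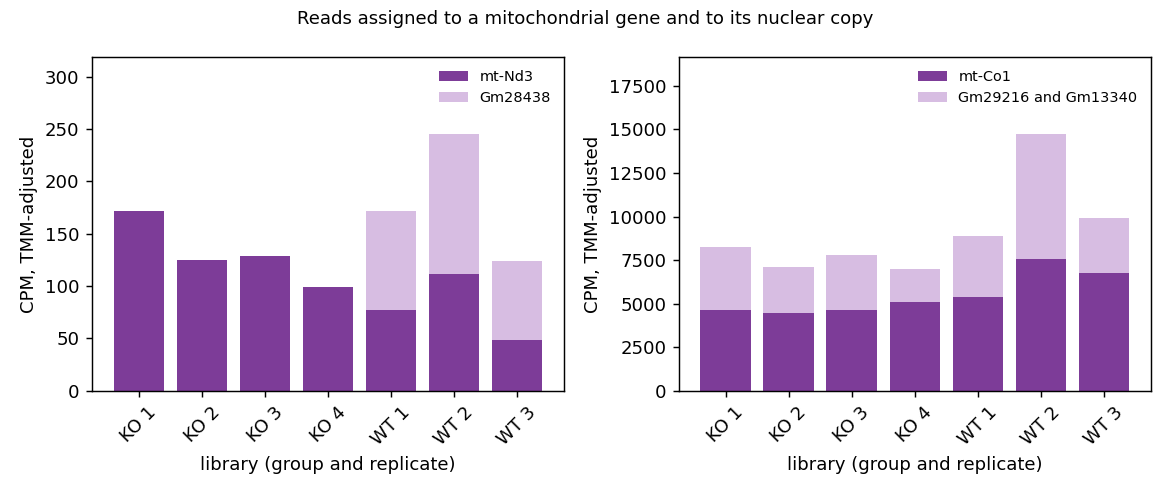
Reads assigned to mt-Nd3 and its copy Gm28438 (left) and to mt-Co1 and its copies Gm29216 and Gm13340 (right) in each library, stacked, in CPM scaled by TMM on a linear axis from 0. The copy of mt-Nd3 holds reads in the 3 libraries labelled WT and none in the 4 labelled KO, whereas the copies of mt-Co1 hold reads in all 7.

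mt-Nd4l encodes a small complex I subunit next to mt-Nd4, and the transcripts of the pair overlap by 7 bases. Its level did not follow that of its neighbour: 82.7, 64.0, 65.4 and 49.4 CPM in KO1 to KO4 and 64.4, 74.5 and 53.5 CPM in WT1 to WT3, a log2 fold change of 0.03 (SE 0.199, edgeR adjusted p 0.961), or -0.003 with upper quartile scaling. Reads of mt-Nd4l per read of mt-Nd4 came to 4.94%, 5.59%, 4.88% and 5.75% in KO1 to KO4 and to 3.81%, 2.41% and 3.41% in WT1 to WT3. The ratios did not overlap (exact permutation test, two-sided, p = 0.0571, the smallest that 4 against 3 libraries can give, and 0.171 adjusted over 3 ratios). For the other 2 ratios examined the groups did overlap. mt-Atp8, which shares 43 bases with mt-Atp6, had 4.23% ± 0.481 of the reads of that gene (SD, n = 4) against 3.62% ± 0.613 (SD, n = 3), with an exact permutation p of 0.229 and an adjusted p of 0.343. mt-Nd6 had 39.4% ± 10.4 of the reads of mt-Nd5 (SD, n = 4) against 50.6% ± 16.5 (SD, n = 3), with an exact permutation p of 0.400 and an adjusted p of 0.400.

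Per length, on the scale of the deposited TPM values (abundance corrected for transcript length), the most abundant mitochondrially encoded gene was mt-Co3, with a mean level of 11390 TPM over the 7 libraries, followed by mt-Atp6 at 10020 TPM. mt-Co2 came next at 6659 TPM, and mt-Co1 and mt-Cytb were near each other at 3635 and 3506 TPM. The level of mt-Co1 leaves out the 27.7% to 48.5% of reads assigned to its copies, so its place in this order is uncertain. The shares below leave them out too. mt-Nd4l was the lowest at 397.7 TPM, below mt-Nd3 at 516.8 TPM and mt-Nd2 at 600.4 TPM. As a share of all mitochondrially encoded TPM, 11 of the 13 genes had overlapping groups, among them mt-Co3 with 24.5% to 27.3% under the KO label and 24.6% to 25.4% under the WT label. The other two were mt-Nd3, at 1.495% to 1.87% against 0.483% to 0.780%, and mt-Nd4l, at 0.933% to 1.19% against 0.657% to 0.845%. With the TPM of the copy Gm28438 added to mt-Nd3, its share was 1.495% to 1.87% against 1.245% to 1.72%, and the groups overlapped, while mt-Nd4l still took a larger share in every library labelled KO.

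Of the nuclear members, 79 encode subunits and 9 encode assembly or related factors (Ndufaf1 to Ndufaf8 and Atp5s). Most were lower on average in the libraries labelled KO, with a median nearer 0 than that of the mitochondrially encoded genes, and the values of the groups overlapped for nearly all of them. edgeR called 0 of 88 lower and 0 of 88 higher, beside the backgrounds of 1.66% and 0.599%, and at an unadjusted p below 0.05 only Ndufaf2 and Cox7a2l were lower, 2 of 88 beside 7.21% of all genes tested. DESeq2 and limma voom also called 0 of the 88. The fitted log2 fold change was below 0 in 77 of the 88, against 47.3% of all genes tested, with a median of -0.33. Every library labelled KO was below every library labelled WT in 3 of the 88 (Uqcrfs1, Cox7a2l and Ndufaf2), a smaller share than the 7.47% of all genes.

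By complex, the median log2 fold change of the nuclear genes was -0.35 in complex I (37 genes, 34 below 0), -0.14 in complex II (4 genes, 3 below 0) and -0.34 in complex III (8 genes, 7 below 0). It was -0.36 in complex IV (14 genes, 13 below 0), -0.30 in complex V (16 genes, 14 below 0) and -0.03 among the 9 assembly and related factors (6 below 0). The medians of the mitochondrially encoded genes were -0.57 in complex I (7 genes), -0.58 in complex III (mt-Cytb alone), -0.50 in complex IV (3 genes) and -0.49 in complex V (2 genes). In each of the 4 complexes built from both genomes the mitochondrial median was thus the lower, by an amount for which no test was made.

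**Figure D3:**
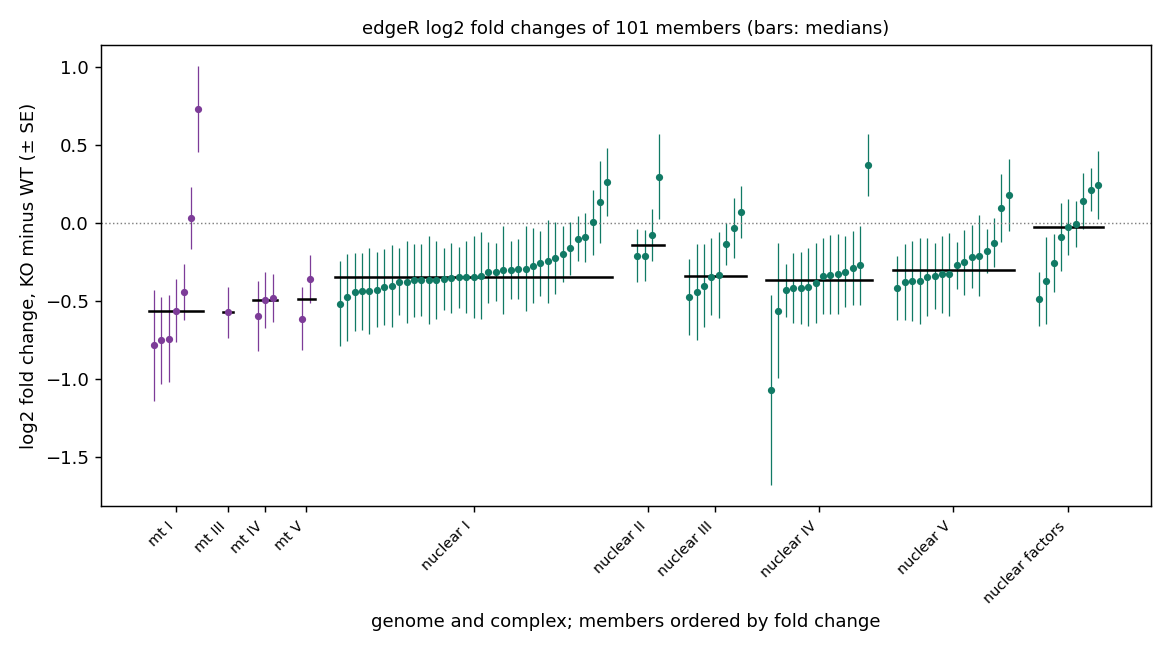
Log2 fold change (KO minus WT) of each of the 101 members with its SE, by edgeR, grouped by genome and complex and ordered within each group. Purple points are mitochondrially encoded genes, green points nuclear genes and black bars group medians; all medians lie below 0, and mt-Nd3 is the highest point at 0.73.

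Among nuclear complex I genes, the smallest p-values belonged to Ndufa3 and Ndufa8, both accessory subunits. Ndufa3 stood at 222.7, 201.0, 197.3 and 108.3 CPM in KO1 to KO4 and at 246.5, 353.8 and 183.1 CPM in WT1 to WT3. Its groups overlapped, and the log2 fold change was -0.52 (SE 0.273, adjusted p 0.420 by edgeR). Ndufa8 differed by -0.36 (SE 0.198, edgeR adjusted p 0.440). The highest level per length in complex I was that of Ndufa4, whose product is now assigned to complex IV. Its mean was 1544 TPM, ahead of Ndufab1, the mitochondrial acyl carrier protein, at 1035 TPM, and of Ndufa3 at 999.9 TPM. Ndufa4 stood at 593.3, 525.5, 472.7 and 326.6 CPM against 557.1, 866.6 and 493.9 CPM, with log2 fold changes of -0.42 (SE 0.244, edgeR adjusted p 0.469) for Ndufa4 and of -0.26 (SE 0.209, edgeR adjusted p 0.595) for Ndufab1.

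Complex II, succinate dehydrogenase, has no mitochondrially encoded subunit. Sdhb, its iron-sulfur subunit, stood at 391.5, 380.9, 332.2 and 281.9 CPM in KO1 to KO4 and at 368.8, 430.6 and 403.8 CPM in WT1 to WT3 (log2 fold change -0.21, SE 0.162, edgeR adjusted p 0.576). The membrane anchors Sdhc and Sdhd differed by -0.21 (SE 0.171, edgeR adjusted p 0.594) and by -0.08 (SE 0.168, edgeR adjusted p 0.856). The groups overlapped for each of these subunits.

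In complex III, Uqcrb, a small subunit near the ubiquinone site, stood at 431.7, 393.1, 368.4 and 258.3 CPM against 432.9, 705.9 and 377.2 CPM (log2 fold change -0.48, SE 0.243, edgeR adjusted p 0.402). Uqcr11 at 1070 TPM and Uqcr10 at 1029 TPM, both small accessory subunits, had the highest levels per length in the complex. They differed by -0.44 (SE 0.309, edgeR adjusted p 0.540) and -0.34 (SE 0.274, edgeR adjusted p 0.599), and Uqcrq, the smaller ubiquinone-binding subunit, by -0.40 (SE 0.268, edgeR adjusted p 0.522). Uqcrfs1, the Rieske iron-sulfur protein that hands electrons to cytochrome c1, was chosen for mention after its values were seen. It stood at 203.9, 191.2, 191.0 and 180.9 CPM against 206.2, 214.3 and 210.7 CPM. Its groups were separated by a narrow gap, and the log2 fold change was -0.13 (SE 0.134, adjusted p 0.672 by edgeR).

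In complex IV, Cox7a2l, a factor that links complexes III and IV into supercomplexes, stood at 156.5, 150.4, 152.3 and 143.2 CPM in KO1 to KO4 and at 177.5, 257.3 and 175.0 CPM in WT1 to WT3. The libraries labelled KO lay close together and all below those labelled WT, with a log2 fold change of -0.43 (SE 0.169, edgeR adjusted p 0.272). Cox8a, the highest nuclear member per length at 1847 TPM, differed by -0.39 (SE 0.257, edgeR adjusted p 0.518). Cox6b1, at 1361 TPM, differed by -0.33 (SE 0.255, edgeR adjusted p 0.574), and Cox5a, an accessory subunit, by -0.42 (SE 0.225, edgeR adjusted p 0.430). The groups overlapped in each of these.

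Some complex IV and complex I subunits have isoforms restricted to certain tissues or conditions. Cox6a2, Cox7b2, Cox8b, Cox8c and Ndufa4l2 stayed under 1 CPM in every library and were left out with a second entry of Atp5o, as the rule asks. Cox4i2, the hypoxia-linked isoform, was low at 2.54, 7.10, 4.10 and 3.51 CPM in KO1 to KO4 and 4.28, 10.03 and 4.83 CPM in WT1 to WT3, with a mean level of 9.56 TPM against 1346 TPM for its common counterpart Cox4i1. Their log2 fold changes were -0.56 (SE 0.435, edgeR adjusted p 0.578) and -0.42 (SE 0.231, edgeR adjusted p 0.446). Cox7a1, the heart and muscle isoform, was near the detection level in both groups at 0.634 ± 0.229 CPM (SD, n = 4) and 1.34 ± 0.735 CPM (SD, n = 3), with an edgeR adjusted p of 0.461. Cox6b2, known as a testis isoform, was at 82.9, 69.2, 73.1 and 52.4 CPM against 56.9, 61.8 and 42.4 CPM. It was the nuclear member with the highest log2 fold change, 0.37 (SE 0.200, edgeR adjusted p 0.433), and its groups overlapped, beside -0.33 for Cox6b1.

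In complex V, Atp5o, a stalk subunit, stood at 404.4, 407.6, 370.1 and 249.5 CPM against 443.1, 584.3 and 407.5 CPM (log2 fold change -0.42, SE 0.206, edgeR adjusted p 0.387). KO2 and WT3 were nearly equal, so the groups met but barely crossed. Atp5f1, the peripheral stalk subunit b, differed by -0.27 (SE 0.149, edgeR adjusted p 0.435). Atp5h had the highest level per length at 1394 TPM, followed by Atp5g3, a gene for the c subunit, at 1224 TPM and Atp5j at 1220 TPM. Their log2 fold changes were -0.38 (SE 0.242, edgeR adjusted p 0.502), -0.22 (SE 0.200, edgeR adjusted p 0.643) and -0.34 (SE 0.212, edgeR adjusted p 0.492).

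Among the assembly and related factors, Ndufaf2, a complex I chaperone, stood at 54.2, 50.05, 57.4 and 47.6 CPM in KO1 to KO4 and at 69.5, 90.1 and 60.7 CPM in WT1 to WT3. Its groups did not overlap, and its adjusted p of 0.216 by edgeR was the smallest of the nuclear members (log2 fold change -0.49, SE 0.172). Ndufaf4 had the opposite sign, at 0.21 (SE 0.139, edgeR adjusted p 0.517). Ndufaf8 differed by -0.37 (SE 0.279, edgeR adjusted p 0.564) and Ndufaf6 by -0.03 (SE 0.181, edgeR adjusted p 0.954).

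Several nuclear members also have near-identical pseudogenes to which reads were assigned, so their own levels are uncertain. The pairs given here were chosen after their values were seen. Ndufb4 had between 73.0% and 76.2% of the reads of the pair assigned to Ndufb4c, and Atp5g2 had between 65.2% and 72.1% assigned to Gm10175. Ndufa12 lost 39.6% to 42.0% to Gm15920 and Ndufs5 lost 29.1% to 32.5% to BC002163. Cox7a2l was divided less evenly between the groups, with 5.42% to 6.20% assigned to Gm6969 under the KO label and 3.23% to 4.19% under the WT label. With its copy added, the log2 fold change of Cox7a2l was -0.40 (SE 0.168, edgeR adjusted p 0.306) and the groups still did not overlap. In these 5 pairs the sign was the same with and without the copy.

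The size of the nuclear difference rested on KO4 and WT2. WT2 was the highest of the 7 libraries in 69 of the 88 nuclear members (78.4%), against 25.1% of all genes tested, and KO4 was the lowest in 71 (80.7%), against 25.5%. Among the mitochondrially encoded genes each held that place in 11 of 13. With both left out, an alternative chosen after seeing the data, the nuclear median was -0.01, with 46 genes below 0 and 42 above. Without WT2 alone it was -0.13, with 79 of the 88 below 0. Without KO4 alone it was -0.17, with 80 of the 88 below 0. The mitochondrial median was -0.25 without both, -0.36 without WT2 and -0.50 without KO4, with 11 of 13 genes below 0 each time. Without both, mt-Nd3 counted apart from its copy was called higher (log2 fold change 1.15, edgeR adjusted p 0.0226). Without KO4 and WT3, the libraries low in Y-linked RNA, the medians were -0.30 (nuclear) and -0.51 (mitochondrial).

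The position of a nuclear member within these libraries went with the length of its transcript. Of the 88, 68 have a mean effective length under 1000 bases, and their median log2 fold change was -0.35 with 67 below 0. The 20 longer members had a median of -0.00 with 10 below 0. All genes tested showed a smaller split in the same direction, with medians of -0.14 under 1000 bases and 0.07 at or over it. In WT2, the median deviation from the mean of all 7 libraries was 0.62 (log2) for the shorter members and -0.17 for the longer ones. In KO4 the corresponding values were -0.68 and 0.02. WT2 was the highest library in 65 of the 68 shorter members, and KO4 the lowest in 65 of 68. Median effective lengths themselves were alike, from 491.2 to 512.6 bases over the nuclear members in the 7 libraries.

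Spearman's rho between this deviation and effective length, across the 88 nuclear genes within a library, was -0.68, 0.14, 0.20 and 0.68 in KO1 to KO4 and -0.33, -0.68 and 0.77 in WT1 to WT3. These are descriptions across genes that share a library, and across all genes tested the same measure stayed between -0.18 and 0.11. Libraries with either label thus had negative and positive values.

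The longer members, chosen for mention after their values were seen, include catalytic subunits. Sdha, the flavoprotein of complex II, stood at 162.2, 191.8, 182.0 and 362.5 CPM in KO1 to KO4 and at 193.4, 151.6 and 204.1 CPM in WT1 to WT3 (log2 fold change 0.30, SE 0.271, edgeR adjusted p 0.641). KO4 was the highest library and WT2 the lowest, the reverse of their places among the shorter members. The same held for Ndufs1, a core iron-sulfur subunit of complex I, at 104.1, 107.8, 99.5 and 144.9 CPM against 97.8, 67.2 and 120.6 CPM (log2 fold change 0.26, SE 0.218, edgeR adjusted p 0.609). It also held for Atp5b, the catalytic beta subunit of the ATP synthase, at 1226, 1589, 1328 and 1891 CPM against 1501, 888.6 and 1613 CPM (log2 fold change 0.18, SE 0.231, edgeR adjusted p 0.750). KO4 was the highest library in 7 of the 88 nuclear members and WT2 the lowest in 10, against 0 and 0 of the 68 shorter ones. Other longer members kept the places of the shorter ones. In Ndufa11 (mean effective length 2183 bases), KO4 was the lowest library at 89.96 CPM and WT2 the highest at 281.8 CPM. The same order of KO4 and WT2 was found in Atp5f1 and Uqcrfs1.

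**Figure D4:**
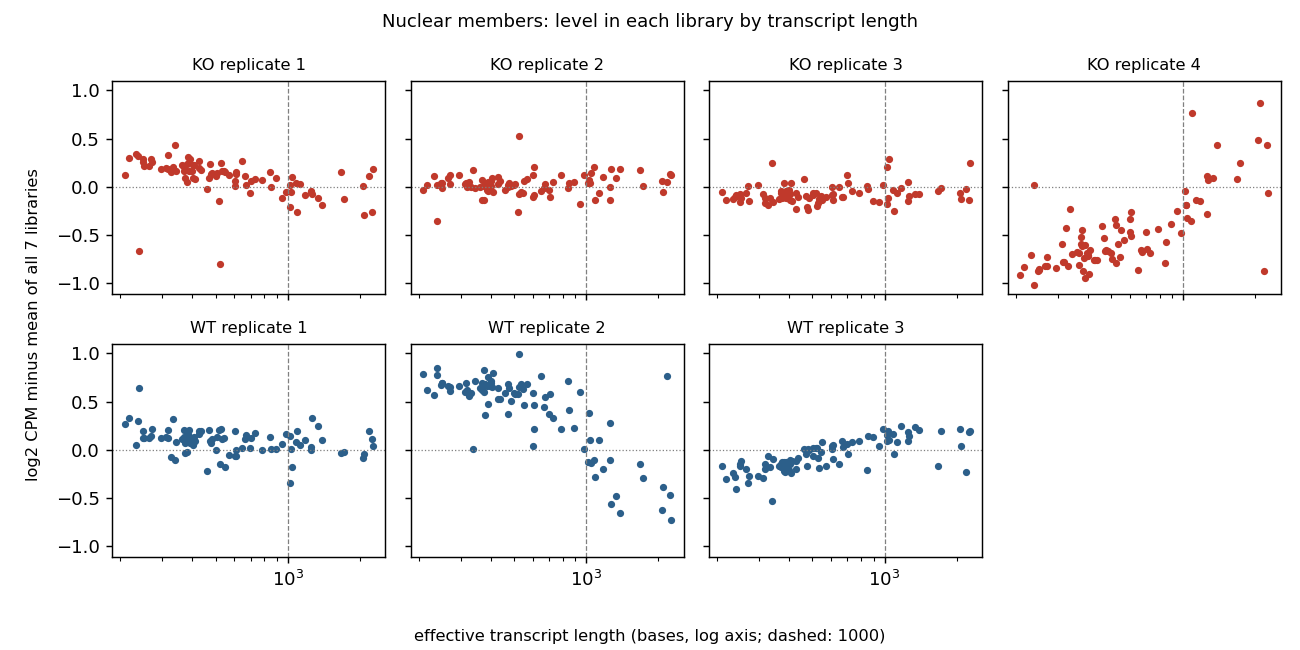
Deviation of each of the 88 nuclear members from its mean over the 7 libraries (log2 CPM), 1 panel per library, against effective transcript length in bases on a log axis. Shorter genes lie low and longer genes higher in KO4, and the other way round in WT2; the dashed line marks 1000 bases.

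Summed over genes, the mitochondrially encoded members took 3.15%, 2.74%, 3.05% and 2.53% of all estimated reads in KO1 to KO4 and 3.25%, 4.76% and 3.56% in WT1 to WT3. The groups did not overlap, with means of 2.87% ± 0.287 (SD, n = 4) and 3.86% ± 0.795 (SD, n = 3), although KO1 and WT1 were separated by less than either SD. The difference of -0.99 percentage points became -0.54 without WT2. The nuclear members took 2.68%, 2.48%, 2.37% and 1.95% against 2.51%, 2.94% and 2.34%, and here the groups overlapped. The summed megakaryocyte and platelet markers, given above, were also lower in every library labelled KO and highest in WT2, and their part in the mitochondrial share was not tested.

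The log2 ratio of mitochondrially encoded to nuclear reads, in which library scaling cancels, was 0.24, 0.15, 0.36 and 0.38 in KO1 to KO4 and 0.37, 0.70 and 0.60 in WT1 to WT3. The means were 0.28 ± 0.11 (SD, n = 4) and 0.56 ± 0.17 (SD, n = 3). The groups overlapped by KO4, which lay just above WT1. With the reads of nuclear copies added to the mitochondrial genes they no longer overlapped, at 0.28 to 0.51 against 0.52 to 0.88. On the scale of deposited TPM, which divides by transcript length, they overlapped widely, at -0.29 to 0.10 against -0.13 to 0.13. The comparison of the genomes thus depended on whether reads or length-scaled values were summed.

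**Figure D5:**
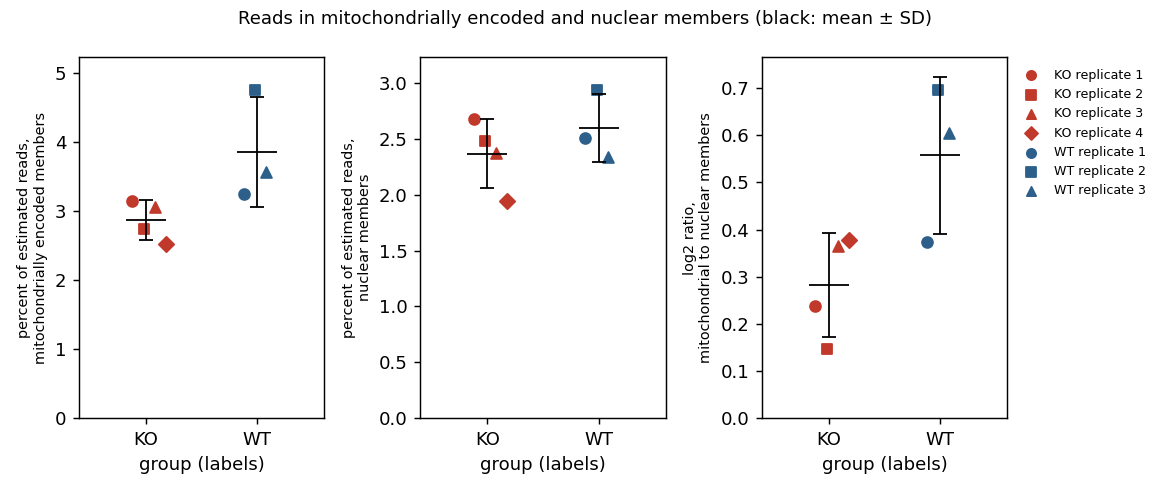
Percent of all estimated reads in the 13 mitochondrially encoded genes (left) and the 88 nuclear genes (middle), and the log2 ratio of the first to the second (right), per library, on linear axes from 0. Black marks are group means with SD; the groups are apart only in the left panel.

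Within single complexes, mean levels per length were higher for mitochondrially encoded than for nuclear subunits in every library. In complex IV the mitochondrial mean was 6193 to 8842 TPM and the nuclear mean 603.4 to 1016 TPM. In complex I the corresponding ranges were 749.1 to 1211 TPM and 343.8 to 541.9 TPM. The log2 ratio in complex I was 0.91 to 1.13 under the KO label and 1.07 to 1.18 under the WT label. In complex IV it was 2.89 to 3.53 against 3.08 to 3.39. The groups overlapped in both complexes, and KO4 had the highest ratio of all in complex IV.

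Promoter sequences of the nuclear members were examined because these genes are known targets of the factors NRF1, GABP (an ETS factor) and YY1. RefSeq promoters (GRCm38.p6, 250 bases before to 50 after the start) were found for 72 of the 88. The core GCGCATGC of the NRF1 motif was present on either strand in 12 of the 72 (16.7%), against 3.9% of 17491 protein-coding genes. The ETS motif CCGGAAG was present in 18 (25%) against 12.9%, and the YY1 motif AAGATGGC in 10 (13.9%) against 3.6%. The joined form CCGGAAGATGGC, in which the ETS and YY1 motifs overlap, was in none, and 33 of the 72 held at least 1 of the 3 motifs. The windows below, chosen after the search from complexes I, II, IV and V, lie upstream of the start and show the NRF1 core in capitals in its surroundings. They are on the plus strand at chr17:56717682-56717729 (Ndufa11) and chr4:140961197-140961244 (Sdhb), and on the minus strand at chr5:115349093-115349140 (Cox6a1) and chr5:108434422-108434469 (Atp5k).

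Ndufa11: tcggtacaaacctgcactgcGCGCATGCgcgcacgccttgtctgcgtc

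Sdhb: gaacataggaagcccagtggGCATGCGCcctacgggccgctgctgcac

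Cox6a1: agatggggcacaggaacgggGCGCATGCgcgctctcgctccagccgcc

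Atp5k: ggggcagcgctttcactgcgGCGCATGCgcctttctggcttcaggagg

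In Sdhb the core reads in the opposite orientation only. In the other windows the capitals, with the gc that follows them, hold the core in both orientations. A match is a description of letters in the promoter and shows no binding in these cells.

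None of the genes of the surrounding pathways passed the edgeR test either, and DESeq2 and limma voom called 1 of them, Hsd17b10. Among 20 genes that transcribe and maintain mitochondrial DNA, 0 were called, 0 had an unadjusted p below 0.05, and the median log2 fold change was 0.09. The smallest p-values were those of Tfb2m, a mitochondrial transcription factor (0.25, SE 0.151, edgeR adjusted p 0.488), and Top1mt, the mitochondrial topoisomerase (0.55, SE 0.364, edgeR adjusted p 0.517). Among 27 genes of mitochondrial RNA processing and stability, a list that also holds the translation factors Mtif2, Mtif3, Tufm, Gfm1 and Tsfm, the median was 0.12, and 2 genes each way had an unadjusted p below 0.05. Of all genes tested, 7.42% were higher and 7.21% lower at that threshold, which is the background for each of these lists. Hsd17b10, a subunit of mitochondrial ribonuclease P, stood at 210.8, 215.0, 214.1 and 150.3 CPM against 299.1, 336.5 and 290.8 CPM. Its groups were well apart, with a log2 fold change of -0.64 (SE 0.168) and an adjusted p of 0.0886 by edgeR, 0.00741 by DESeq2 and 0.0310 by limma voom. Fastkd1, an RNA-binding protein of the same list, had the opposite sign at 0.46 (SE 0.176, edgeR adjusted p 0.267).

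The 78 mitochondrial ribosome genes had a median of -0.13, with 67 below 0, beside 47.3% of all genes tested, and 3 lower at an unadjusted p below 0.05, beside 7.21%. All tested genes under 1000 bases had a similar median of -0.14, with 1759 of 2723 below 0. The transcript lengths of the 78 genes, and their median without KO4 and WT2, were not analysed here. The smallest p-values were those of Mrps25 (-0.57, SE 0.205, edgeR adjusted p 0.229) and Mrpl53 (-0.54, SE 0.222, edgeR adjusted p 0.297). The 45 assembly factors outside the symbol rule had a median of -0.12, with 1 lower at an unadjusted p below 0.05, beside 7.21% of all genes tested. That gene was Coa5, a complex IV assembly factor, at -0.53 (SE 0.169, edgeR adjusted p 0.1697), and Cox10, which acts in haem A synthesis, followed at -0.45 (SE 0.228, edgeR adjusted p 0.396). A list of 22 genes for electron carriers, ubiquinone synthesis, the ADP/ATP and phosphate carriers (Slc25a4, Slc25a5 and Slc25a3) and the ATPase inhibitor Atpif1 had a median of -0.13. An unadjusted p below 0.05 was found for 1 on the higher and 2 on the lower side, beside 7.42% and 7.21% of all genes tested. Coq8b, of ubiquinone synthesis, differed by 0.83 (SE 0.311, edgeR adjusted p 0.245) and Etfb, a subunit of the electron transfer flavoprotein, by -0.49 (SE 0.190, edgeR adjusted p 0.266). The other gene on the lower side was the ADP/ATP carrier Slc25a4 at -0.35 (SE 0.136, edgeR adjusted p 0.273).

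The 18 genes of the tricarboxylic acid cycle and of pyruvate dehydrogenase, which feeds it (Pdha1, Pdhb, Pdhx and Dlat), had a median of 0.07 and none had an unadjusted p below 0.05. Idh2 differed by 0.38 (SE 0.276, edgeR adjusted p 0.558) and Dld by 0.25 (SE 0.179, edgeR adjusted p 0.550). Of 16 regulators of nuclear oxidative phosphorylation genes, 15 were tested, with a median of 0.00 and none at an unadjusted p below 0.05. Yy1 differed by -0.39 (SE 0.189, edgeR adjusted p 0.384). Myc differed by 0.51 (SE 0.296, edgeR adjusted p 0.469), with KO4 the highest library at 802.0 CPM and WT2 the lowest at 272.0 CPM.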

How the data were processed

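Per the submitters' processing notes, the authors trimmed reads with cutadapt and quantified transcripts with Salmon 0.11.2 on mm10. No source used here names the transcript set. The values the authors deposited for 112092 transcripts per library are estimated counts, TPM (their length-scaled form) and effective lengths, the last deposited as other numbers in bases. Reads that fit several transcripts were divided among them by Salmon. Identifiers were joined without version to GENCODE M21 (GRCm38). The 305 unmatched transcripts held 0.084% to 0.123% of reads. Estimated counts were summed to genes and rounded. The library kit does not mark strand.

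Groups and replicate numbers came from the labels. All 7 libraries entered edgeR 4.0.16 (R 4.3.3) with TMM scaling, filterByExpr and its quasi-likelihood test, with Benjamini-Hochberg adjustment over all 14695 genes and a threshold of 0.05. CPM values use the TMM-adjusted library size. Standard errors were obtained from each fold change and its F statistic. On simulated counts for this comparison (14366 genes), the test called 32% of 100 genes changed 2-fold, 85% of 100 changed 4-fold and 4 of 14166 unchanged genes. Deviations by length used log2(CPM + 0.5). Near-identical copies were found with BLAST 2.17.0 among the annotated transcripts (at least 95% identity, 100 bases and 50% of the shorter transcript). The floor of 3 reads covers counting error only.

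The members and lists were chosen with earlier results of these data known. Members were named by rule: all mitochondrially encoded members, the 2 nuclear members with the smallest p and the 3 with the highest mean TPM in each complex, tissue-restricted isoforms beside their common counterparts, and 2 genes per pathway list. Any other member was chosen after seeing values. The ribosomal RNAs mt-Rnr1 and mt-Rnr2, and Malat1 and Neat1, were not analysed here. Alternatives were RLE and upper quartile scaling, scaling without mitochondrial genes, no filter and a stricter filter (1 CPM in 3 libraries and 50 reads), DESeq2 1.42.0, limma 3.58.1 voom with quality weights, a length offset, the replicate number as a block, protein-coding genes only, added copies, other denominators, deposited TPM and libraries left out. Same-numbered libraries of the groups had correlations of -0.183, -0.162 and -0.129 between their deviations from the group means, so the numbers were not taken to pair them. No 2 replicates agreed within sampling noise.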

Additional observations from a re-analysis of the deposited data

How the results depend on the processing

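The test found no member past the threshold under the scaling, filter, length offset, protein-coding and copy alternatives, and with any 1 library left out. DESeq2 called 2 mitochondrially encoded genes lower (mt-Co1 and mt-Cytb). limma voom called 1 higher (mt-Nd3, adjusted p 0.0193), as did edgeR without KO replicate 4 and WT replicate 2 (1 higher, mt-Nd3, adjusted p 0.0226), an alternative chosen after seeing the data. Leaving out both also moved the mitochondrial median to -0.25 and the difference in mitochondrial share to -0.42 percentage points. On deposited TPM the difference in the log2 ratio of mitochondrial to nuclear members was -0.11 instead of -0.28. With 1 library left out, the medians ranged from -0.70 to -0.36 (mitochondrial) and from -0.48 to -0.13 (nuclear), the difference in share from -1.29 to -0.54 percentage points and that in the ratio from -0.37 to -0.21. The replicate block, which the numbers gave no ground for, gave 0 calls among the members, medians of -0.46 and -0.15, and 58 higher and 182 lower among all genes in place of 88 and 244. Over all genes DESeq2 called 352 higher and 514 lower, limma voom 269 and 439, and the length offset 215 and 251. Signs turned in the following cases. mt-Nd3 was -0.458 with nuclear copies added, whether for mitochondrial genes or for every member. mt-Nd4l was -0.003 with upper quartile scaling. Sdhd was 0.02 and Ndufaf6 0.049 with the replicate block, and Ndufaf6 was 0.059 with limma voom. With libraries left out (1 at a time, KO replicate 4 with WT replicate 3, or KO replicate 4 with WT replicate 2), the values ranged from -0.12 to 0.24 for mt-Nd4l, from -0.174 to 0.09 for Sdhd, from -0.105 to 0.134 for Ndufaf6, from -0.38 to 0.061 for Ndufab1, from -0.588 to 0.002 for Uqcrq and from -0.685 to 0.031 for Uqcr11. They ranged from -0.552 to 0.077 for Uqcr10, from -0.571 to 0.031 for Cox8a, from -0.505 to 0.059 for Cox6b1, from -0.543 to 0.028 for Atp5h, from -0.369 to 0.056 for Atp5g3 and from -0.562 to 0.071 for Ndufaf8. The values above 0 of these last 6, and of Ndufab1, Uqcrq and Uqcr11, came from leaving out KO replicate 4 and WT replicate 2 together. The cause of these changes was not tested, apart from the added copies, which change what is counted. With 4 and 3 libraries, 2-fold changes were called in 32% of simulated cases, so a member without a call may still differ.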
